A study of Mus musculus with 2 samples.

Results

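Arterial smooth muscle was followed here through 16 µm squares of tissue, called bins, in which at least 2 transcripts of Myh11, Acta2 and Cnn1 were counted together. These genes encode the smooth muscle myosin heavy chain, smooth muscle α-actin and calponin. The rule took 2772 of 222933 bins, of which 1555 of 119617 lay in the section taken 3 days after injury and 1217 of 103316 in the section taken at 28 days. Transcripts were counted as unique molecular identifiers (UMIs), which count each captured molecule once, and only bins with at least 100 UMIs entered. Because the 3 genes chose the bins, their own levels are no finding and they are left out of the gene lists, ratios and counts of genes. Which of them a bin held serves below only to describe and split the bins, and their sum only as an alternative scaling.

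The mice were male C57Bl6 animals (C57BL/6 J in the study's methods) aged 3 months, exposed to controlled cortical impact, a blow by a driven piston on bared cortex, here over the right parietal lobe. Each time point was 1 coronal section of 10 µm of formalin-fixed, paraffin-embedded brain, measured with Visium HD, a spatial probe-based sequencing assay. Per the labels the mice had no further treatment, and no section of a sham-operated mouse was analysed here. The injured side was the part of the array with a column index below 130 at 3 days and below 240 at 28 days. The rest of the same section, called the opposite side, served for comparison. The midline is not marked in the data, so this division was not checked against anatomy. At 3 days it gave 39116 injured and 80501 opposite bins, so these areas cannot be taken as matched hemispheres. With 1 section per time point there was no replicate and no test, and all intervals are 95% intervals of counting error alone. Counts of genes called higher or lower take ratios past 2-fold, while higher or lower beside a printed ratio gives its direction only. A bin can hold parts of several cells, so a bin chosen here is a square of tissue with these transcripts in it rather than a cell, and fewer smooth muscle cells in a bin cannot be told apart from less RNA per cell.

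Smooth muscle cells wrap the arteries and arterioles of the brain in rings and set their diameter through actin and myosin. The contractile genes share a control element, the CArG box, at which serum response factor and its partner myocardin bind. After injury, smooth muscle of large arteries is known to lose contractile proteins and to make matrix instead, a state called synthetic.

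The element is shown for Myl9, which encodes the regulatory light chain of smooth muscle myosin. It was the only 1 of 17 contractile genes with a RefSeq window whose window held an exact match. It was also among the genes most concentrated in the chosen bins. The 250 bases before its start (RefSeq, GRCm38.p6, chr2:156775214-156775463, plus strand) read as follows, with the CArG box in capitals.
Myl9: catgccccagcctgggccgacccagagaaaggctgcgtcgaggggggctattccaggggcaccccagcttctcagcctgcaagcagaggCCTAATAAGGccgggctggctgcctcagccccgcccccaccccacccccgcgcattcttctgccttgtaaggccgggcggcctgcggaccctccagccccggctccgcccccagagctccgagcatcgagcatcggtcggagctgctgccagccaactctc
The box began 161 bases before the start, and since the searched pattern reads the same on both strands, a match covers both. A box lay in this window for 439 of 27025 genes with a RefSeq window (1.62%) and for 211 of 14085 genes of the probe set (1.5%). Among the contractile genes with a window, 1 of 17 held it, and among the immediate early genes Srf itself was 1 of 12. Only exact boxes were counted, with CC, then A or T bases alone, then GG, as in Myl9. Boxes with a mismatch or outside these 250 bases were not searched, so a gene without a match may still hold one. A match describes the letters of this window and does not show binding.

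The sections held 120615873 and 82422389 UMIs, with a median of 836 and 596 UMIs per bin over all bins in the files. The chosen bins had a median of 756 UMIs at 3 days and 578 at 28 days. Of the chosen bins, 590 (37.9%) at 3 days and 439 (36.1%) at 28 days held exactly 2 UMIs of the 3 genes, while 1994 and 1588 bins lay just outside the rule with 1 UMI. The highest count in 1 bin was 31 at 3 days and 43 at 28 days. Acta2 was counted in 1428 and 1118 of the chosen bins, Myh11 in 1100 and 916, and Cnn1 in 182 and 105. Bins of dentate gyrus granule neurons, cells that should lack these genes, were taken as those with at least 3 UMIs of granule neuron genes and gave 0 chosen bins of 1103 and of 559, which allows a share of up to 0.272% and 0.537% (a limit of 3 bins), although their median depth was 2095 and 2266 UMIs. The share of those neuron bins with any UMI of the 3 genes was 0.453% and 0.537%, against 2.97% and 2.71% of all bins. The files name bins by their place on the grid, so 84781 names occurred in both files without being shared tissue.

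Chosen bins were counted more often per bin of the injured side than of the opposite side in both sections. At 3 days they were 684 of 39116 bins on the injured side (1.75%, exact binomial interval 1.62 to 1.88) and 871 of 80501 on the opposite side (1.08%, 1.01 to 1.16). At 28 days they were 752 of 49478 (1.52%, 1.41 to 1.63) and 465 of 53838 (0.864%, 0.787 to 0.946). These intervals treat bins as independent, although chosen bins lay next to each other in patches of 1 section, so the error is understated and the difference between sides was not tested. With every bin thinned to 300 UMIs the 3-day section gave 0.813% and 0.514% and the 28-day section 0.919% and 0.506%, in the same order. At 3 days 4297 injured and 8918 opposite bins were too shallow to be thinned, and at 28 days 9853 and 9532.

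On the injured side the lesion itself held a smaller share of chosen bins than its surroundings. The lesion zone was placed by Cd68, Lyz2, Ctsz, Lgals3, Cd52 and Laptm5, genes of phagocytes, which are therefore not reported. It held 73 of 8506 bins (0.858%, 0.673 to 1.08) at 3 days against 611 of 30610 (2.00%, 1.84 to 2.16) on the injured side outside it, and 114 of 13559 (0.841%, 0.694 to 1.01) against 638 of 35919 (1.78%, 1.64 to 1.92) at 28 days. After thinning to 300 UMIs the zone held 0.365% (0.237 to 0.539) and the surroundings 0.922% (0.814 to 1.04) at 3 days, and 0.699% (0.539 to 0.892) and 0.985% (0.877 to 1.1) at 28 days. The limit on intervals over bins holds here too. Median depth over all bins was 506 UMIs in the zone against 937 outside it at 3 days, and 399 against 660 at 28 days.

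**Figure D1:**
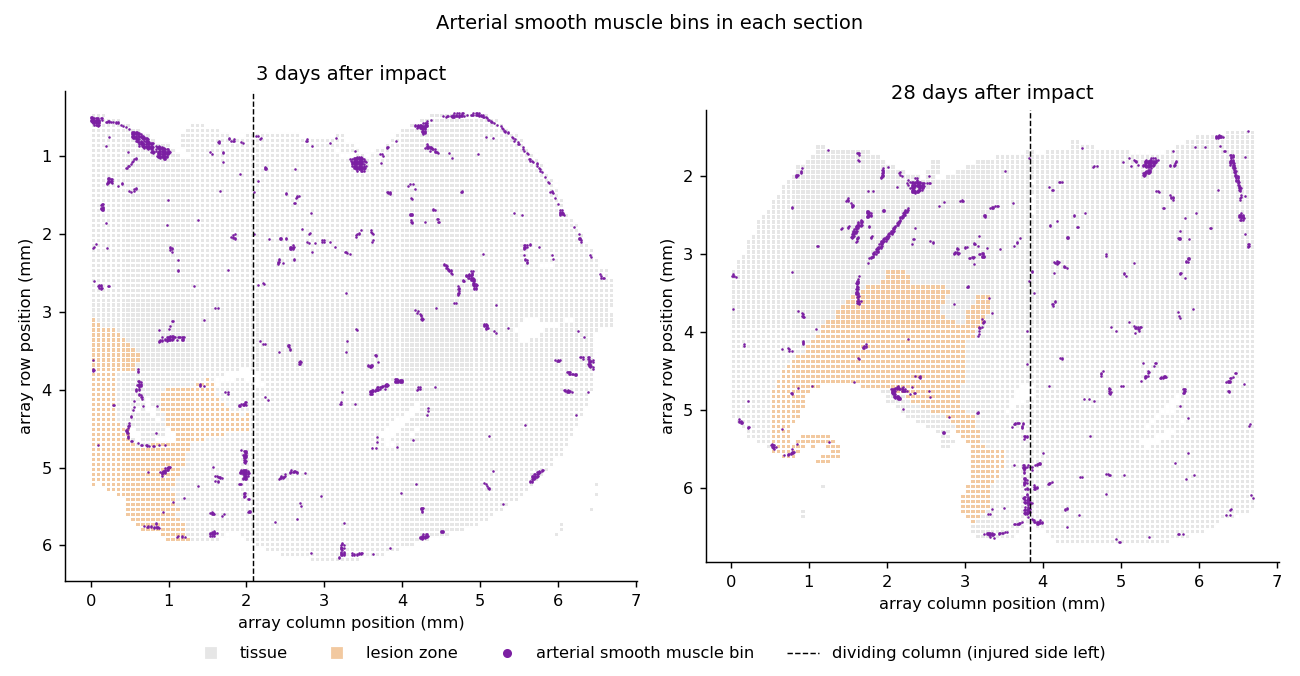
Position of the chosen bins (purple) in both sections, in mm along the columns and rows of the array, over tissue (grey) and lesion zone (orange), with the dividing column as a dashed line. The bins form rings, rods and strings, and the injured side, left of the line, holds 684 of them at 3 days and 752 at 28 days.

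Chosen bins lay in strings and clumps rather than singly. They fell into 328 connected patches at 3 days and 265 at 28 days, of which 164 and 135 were single bins, while patches of 5 or more bins held 1126 and 872 of the chosen bins. The largest patch had 127 bins at 3 days and 107 at 28 days, in both cases on the injured side. Surface arteries run along the outline of the section, but a wound edge open to the outside would count as outline too. Nearness to it therefore does not separate surface from deep vessels cleanly. Within 80 µm of this outline lay 5.27% of all bins at 3 days and 5.58% at 28 days. Of the chosen bins, 36.1% and 21.5% lay there. This surface share differed by side, at 30.4% injured and 40.6% opposite at 3 days and 24.2% and 17.2% at 28 days. The tissue itself differed in the same order, with 4.41% and 5.69% of all bins near the outline at 3 days and 8.73% and 2.70% at 28 days.

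The identity of the bins was checked on genes that the rule did not use, against neighbouring bins 32 to 48 µm away that held no UMI of the 3 genes. Since the choice of bins fixes this contrast, it is a description only. On the opposite side the list of 23 other contractile genes had a median log2 ratio over neighbours of 3.92 at 3 days and 4.59 at 28 days, with 20 and 21 genes past 2-fold, where 13.2% and 13% of all genes with at least 20 UMIs, the minimum for lists, were higher by that much (10.8% and 9.2% with at least 50). Tagln, the actin-binding protein transgelin, had the highest ratio of the genes with at least 100 UMIs, at 6.06 and 6.70, followed among others by Pln, Tpm2 and Myl9 at 5.67, 5.57 and 5.48 at 3 days. Pln encodes phospholamban, the brake of the calcium pump, and Tpm2 a tropomyosin that lies along actin.

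Other parts of the arterial wall were in the same bins. Genes of arterial endothelium had a median of 4.01 at 3 days and 4.03 at 28 days, above endothelium at large (2.65 and 2.79) and above genes of veins (1.49 and 1.90). The genes that the study names for smooth muscle of pial veins were in the bins as well, at 2.10 and 3.38 over 3 measured genes. Elastic fibre genes stood at 3.15 and 3.29, fibroblast genes at 2.87 and 2.62, pericyte genes at 2.31 and 2.88 and Notch pathway genes at 1.64 and 2.01. Neuronal genes were lower, at -1.0 and -0.82. Skeletal muscle, which shares contractile genes, was near 0 throughout, with 7 UMIs of 6 genes on either side at 3 days, 3 and 7 UMIs at 28 days, and none in the zone. On the opposite side the bins thus held arterial markers, but not these alone.

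On the opposite side the signal was lower within a few bins. Tagln there was at 2292 CPM (counts scaled by the summed UMIs of the bins) in the chosen bins at 3 days, at 281 CPM in bins 16 µm away, at 64 at 32 µm, at 23.7 at 48 µm and at 11.8 at 64 to 96 µm. Sema3g, made by arterial endothelium, went from 266 to 45.0, 14.9, 8.94 and 7.68 CPM over the same steps. The lesion zone at 3 days was different for Tagln, which was at 2407 CPM in the chosen bins and still at 1074, 842, 690 and 545 CPM in the successive rings. Myl9 in that zone was at 491 CPM in the chosen bins, 110 CPM at 16 µm and 62.9 CPM at the largest distance. At 28 days Tagln in the zone was again highest at the vessel, at 2600 CPM in the chosen bins, 292 CPM at 16 µm and 40.5 CPM at 64 to 96 µm.

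**Figure D2:**
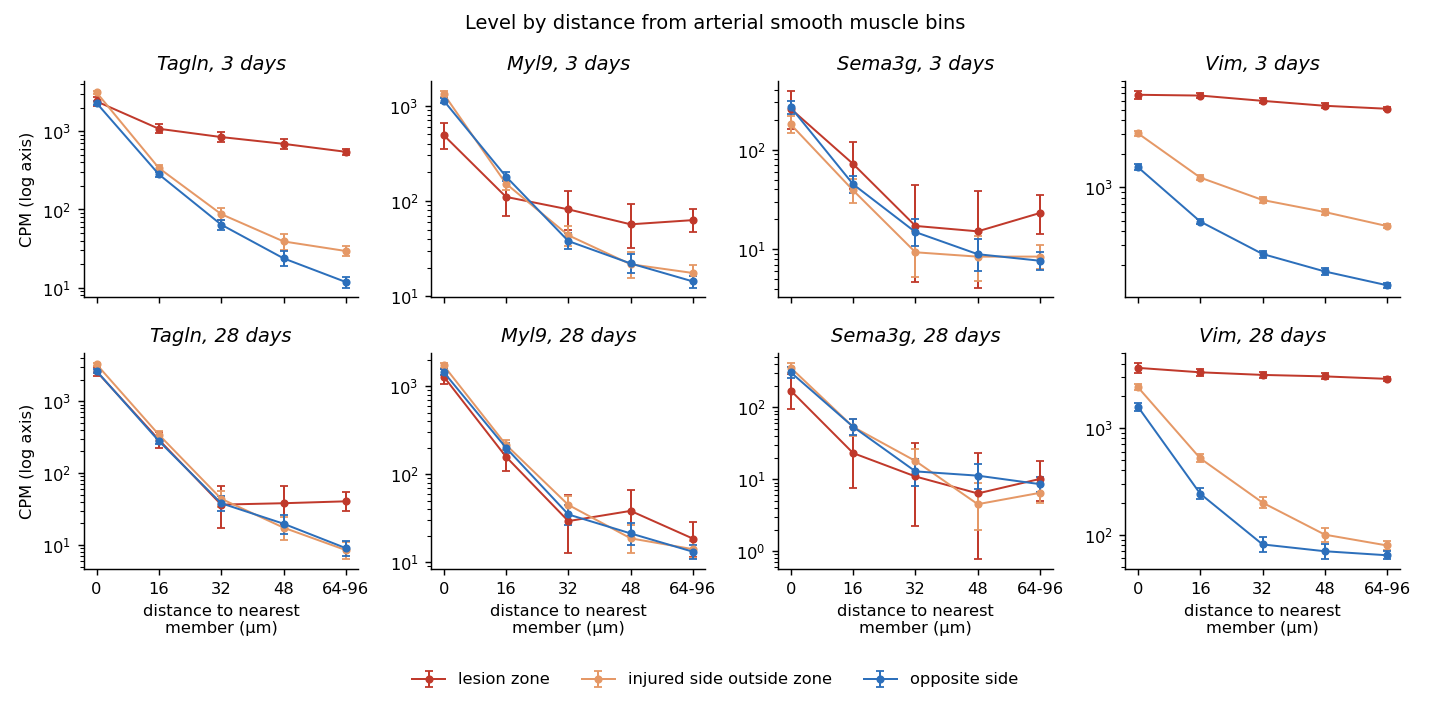
Level (CPM, log axis) of Tagln, Myl9, Sema3g and Vim in chosen bins (distance 0) and in bins 16 to 96 µm from the nearest one, for the lesion zone (red), the injured side outside it (orange) and the opposite side (blue), with 95% Poisson intervals. Tagln at 28 days is below 50 CPM from 32 µm on in every area, but in the zone at 3 days it is still at 545 CPM in the outermost ring, and Vim is nearly level across the zone.

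Chosen bins were not alike. On the opposite side at 3 days the level of Tagln was 296 CPM in bins with 1 UMI of the defining genes, just outside the rule, 996 CPM at 2 UMIs, 1766 CPM at 3 or 4 and 4819 CPM at 5 or more, and Myl9 followed it at 193, 514, 943 and 2272 CPM. Rgs5, the regulator of G protein signalling that marks mural cells of small vessels, showed no such order, at 206, 236, 251 and 241 CPM. Patch size told the same bins apart in another way. Tagln was at 270 CPM in single bins, near the level of bins just outside the rule, and 3064 CPM in patches of 5 or more at 3 days, and at 664 and 3630 CPM at 28 days, while Rgs5 was at 364 and 186 CPM at 3 days and at 800 and 287 CPM at 28 days. Depth from the surface sorted them too. On the opposite side at 3 days bins near the outline held 136 CPM of Rgs5 and deeper ones 308 CPM, while Ptgds, the prostaglandin D synthase of the meninges, stood at 33041 and 1798 CPM, Col1a1 at 783 and 134 CPM and Snap25, a synaptic protein of neurons, at 350 and 2091 CPM.

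Contractile genes differed between the sides by less than 2-fold, with 1 exception at 3 days. On the injured side Tagln was at 3029 CPM at 3 days, against 2292 CPM opposite (log2 ratio 0.40, interval 0.31 to 0.50), and at 3150 and 2636 CPM at 28 days (0.26, 0.14 to 0.37). The sides were closer for Myl9, at 1218 and 1132 CPM at 3 days (0.11, -0.04 to 0.25) and 1644 and 1446 CPM at 28 days (0.18, 0.02 to 0.35). Mylk, the kinase that activates myosin, was at 601 and 588 CPM and at 885 and 791 CPM, and Lmod1, which seeds actin filaments, at 183 and 186 CPM and at 244 and 233 CPM. The intervals of both genes held 0 in both sections. Over the list of 23 genes the median was 0.30 at 3 days, with 1 gene at least 2-fold higher and none lower, and 0.26 at 28 days, with none past 2-fold. Intervals lay above 0 for 11 of the 23 genes at 3 days and 9 at 28 days and below 0 for none, where 9.55% of all genes with at least 20 UMIs, the minimum for lists, lay above and 10.5% below at 3 days, and 5.55% and 7.37% at 28 days. Of all genes with at least 50 UMIs, 2.49% were at least 2-fold higher and 3.49% lower at 3 days, and 1.25% and 2.13% at 28 days, around a median of 0.00 in both sections. At the 20 UMIs used for lists the shares were 4.64% higher and 4.5% lower at 3 days, and 2.95% and 3.54% at 28 days.

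The direction at 3 days rested on which opposite tissue was used. With the opposite side restricted to the columns that mirror the injured side, which left 390 of its 871 chosen bins, the contractile median at 3 days was -0.17 in place of 0.30, Tagln was at -0.05, Myl9 at -0.30, Smtn at -0.17 and Flna at -0.10. At 28 days the median was above 0 under every alternative tried, between 0.21 and 0.58. Chosen bins of that section were shallower on the injured side, with a median of 503 against 710 UMIs. A cut of 2 UMIs asks for a higher level in shallower bins. No alternative matched this depth between the sides, so its part in the median was not tested.

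A few contractile genes stood further apart. Nexn, a protein of actin filaments, was at 54.8 and 25.7 CPM at 3 days (1.08, 0.25 to 1.98), on 54 UMIs in all. Smtn, smoothelin, a protein of fully contractile smooth muscle, was at 330 CPM injured and 176 CPM opposite at 28 days (0.90, 0.48 to 1.34), and at 219 and 165 CPM at 3 days (0.41, 0.05 to 0.77). Actin-linked Cald1 (caldesmon) and Flna (filamin A) were higher by 0.41 and 0.30 at 3 days and by 0.34 and 0.45 at 28 days. Myocd, the transcriptional partner of serum response factor, gave 30 and 37 UMIs at 3 days and 31 and 21 at 28 days, too few to separate the sides.

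Channels and receptors of smooth muscle went both ways at 3 days, and 0 of the 11 measured genes of the channel and calcium list passed 2-fold on the side comparison. In the pairs of levels that follow, the injured side stands first. The median of the list was -0.16 at 3 days, and 0.08 at 28 days, where 1 of 10 genes was at least 2-fold lower, beside 3.54% of all genes. Kcnmb1, the subunit that makes large potassium channels of smooth muscle sensitive to calcium, was at 146 and 101 CPM at 3 days (0.52, 0.07 to 0.98, but -0.11 with mirrored columns) and 150 and 120 CPM at 28 days (0.31, -0.24 to 0.89). The ryanodine receptor gene Ryr2, a calcium release channel that neurons make too, was at 64.2 and 126 CPM at 3 days (-0.96, -1.54 to -0.42). Both subunits of the nitric oxide receptor guanylate cyclase were lower on the injured side at 3 days, Gucy1a1 at 213 against 315 CPM (-0.56, -0.88 to -0.25) and Gucy1b1 at 116 against 184 CPM (-0.66, -1.09 to -0.25). The pair parted at 28 days, with Gucy1a1 at 482 against 356 CPM (0.44, 0.12 to 0.76) and Gucy1b1 at 150 against 206 CPM (-0.46, -0.94 to 0.03). Neighbouring bins were lower for Gucy1a1 on the injured side as well, at 140 against 209 CPM at 3 days. Of the vasoactive receptors, Ednrb (endothelin receptor B) and Npy1r (a neuropeptide Y receptor) were higher at 28 days, by 1.39 on 47 and 14 UMIs and by 1.41 on 31 and 9 UMIs.

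None of the measured genes of arterial endothelium, pericytes and the Notch pathway passed 2-fold on the side ratio, although single genes had intervals off 0. Notch3, the receptor that keeps arterial smooth muscle mature, was at 182 and 209 CPM at 3 days (-0.20, -0.56 to 0.15) and 287 and 289 CPM at 28 days (-0.01, -0.38 to 0.37), and its ligand Jag1 at 226 and 232 CPM and at 345 and 305 CPM. Gkn3, listed here with arterial endothelium and used in the study as a marker of arterial smooth muscle, was at 100 and 154 CPM at 3 days (-0.61, -1.08 to -0.17) and 191 and 139 CPM at 28 days (0.45, -0.05 to 0.98), while Sema3g of arterial endothelium was at 189 and 266 CPM (-0.49, -0.83 to -0.16) and 324 and 307 CPM (0.07, -0.29 to 0.44). The mural gene Rgs5 was at 299 and 242 CPM at 3 days and at 332 and 489 CPM at 28 days, with log2 ratios of 0.31 and -0.56. Bins near the outline held less Rgs5 than deeper ones, as given above, and the share of chosen bins near the outline was 30.4% and 40.6% at 3 days and 24.2% and 17.2% at 28 days. In bins deeper than 80 µm the ratios of Rgs5 were 0.41 and -0.59.

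Of the elastic fibre genes, 8 of 13 had an interval above 0 on the side ratio at 3 days and 1 below, and 4 of 12 above and 0 below at 28 days, beside 9.55% above and 10.5% below of all genes at 3 days and 5.55% and 7.37% at 28 days. Eln, the elastin gene, was at 268 and 161 CPM at 3 days (0.73, 0.39 to 1.09) and 285 and 168 CPM at 28 days (0.75, 0.32 to 1.22). Fbln5, a fibulin that guides elastic fibre assembly, had ratios of 0.55 (0.22 to 0.90) and 0.93 (0.47 to 1.42), and Emilin1, an elastic fibre glycoprotein, of 0.98 and 1.41, the latter on 21 and 6 UMIs. Over the elastic fibre list the median was 0.80 at 3 days, with 2 genes at least 2-fold higher, and 0.60 at 28 days, with 1, where 4.64% and 2.95% of all genes were. Beyond neighbours the median of the list was -0.14 at 3 days, with 0 genes higher and 1 lower by 2-fold, and 0.19 at 28 days. Ltbp4, a latent TGF-β binding protein, went the other way at 3 days, at 285 and 377 CPM (-0.40, -0.68 to -0.13). With mirrored columns Eln at 3 days was at 0.18, but neither the elastic fibre nor the basement membrane list was recomputed with them. The median of the basement membrane list was 0.56 at 3 days and 0.43 at 28 days, with Col4a1, its type IV collagen chain, at 932 and 530 CPM (0.81, 0.63 to 1.0) and at 786 and 521 CPM (0.59, 0.34 to 0.85). Beyond neighbours the median of the basement membrane list was 0.07 at 3 days and -0.37 at 28 days. Mgp, matrix Gla protein, an inhibitor of calcification in the artery wall, was at 2944 and 1705 CPM at 3 days (0.79, 0.68 to 0.89) and at 2861 and 1334 CPM at 28 days (1.1, 0.95 to 1.25).

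**Figure D3:**
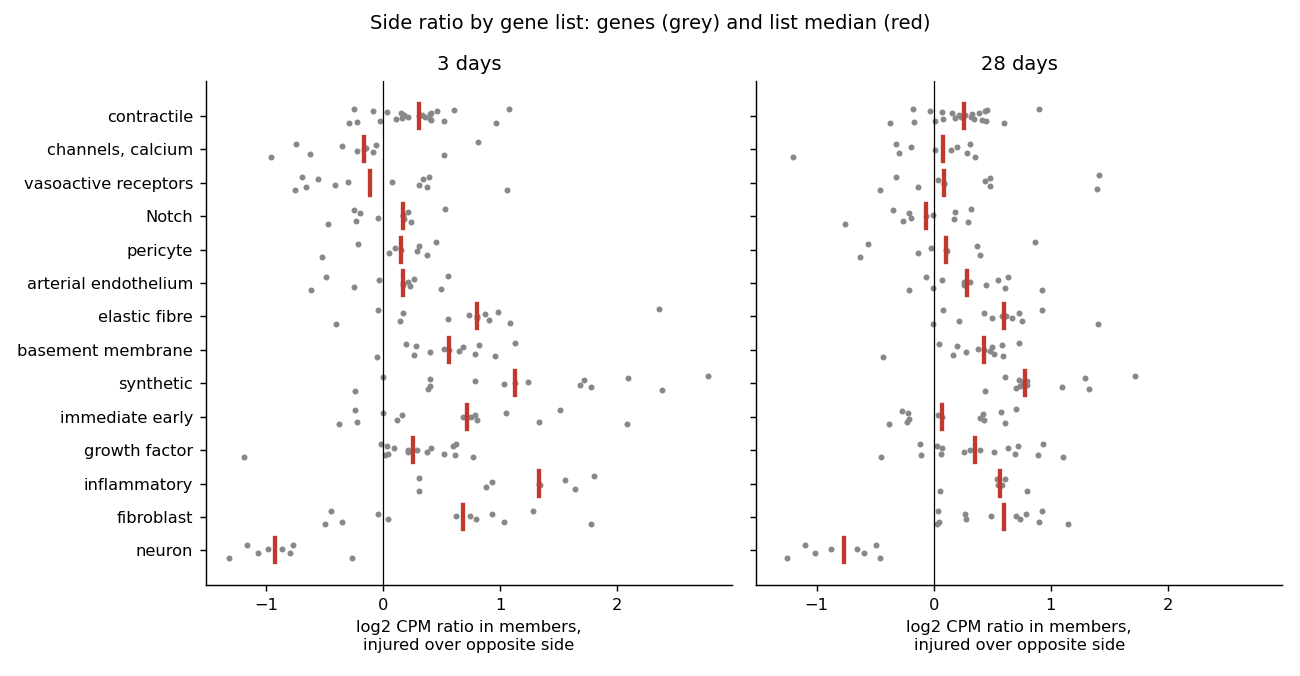
Log2 CPM ratio of injured over opposite side in chosen bins, by gene list and section, with 1 grey point per gene with at least 20 UMIs and the list median as a red bar. The contractile median lies at 0.30 and 0.26, the synthetic median at 1.13 and 0.78 and the neuronal median at -0.93 and -0.77.

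Of the genes of the synthetic state, 9 of 15 were at least 2-fold higher on the injured side at 3 days and 4 of 13 at 28 days, where 4.64% and 2.95% of all genes were, and 11 and 9 had intervals above 0. At 3 days the synthetic median was 1.13, and no gene was lower by 2-fold. The synthetic, immediate early and inflammatory lists were not recomputed with mirrored columns, which changed the sign of the contractile median at 3 days. Vim, the intermediate filament vimentin, was at 3566 and 1516 CPM (1.23, 1.13 to 1.34), Spp1, osteopontin, at 661 and 201 CPM (1.71, 1.44 to 1.99) and Col3a1, a fibrillar collagen, at 764 and 178 CPM (2.10, 1.82 to 2.39). Ratios were larger for Tnc, the matrix protein tenascin C, at 193 and 36.5 CPM (2.38), and Timp1, an inhibitor of matrix proteases, at 161 and 23.0 CPM (2.78). The zone held 113 of the 123 UMIs of Tnc on the injured side and 71 of the 103 of Timp1, and outside it the injured side was at 18.1 CPM of Tnc (-0.97) and 57.9 CPM of Timp1 (1.31). The 28-day median was 0.78, again with no gene lower by 2-fold. Vim was then at 2619 and 1577 CPM (0.73, 0.59 to 0.88), Spp1 at 210 and 120 CPM (0.80) and Col3a1 at 332 and 190 CPM (0.80), while Tnc had 7 and 12 UMIs. Whether the sections differed was not tested.

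Markers of other cells differed between the sides as well, in both directions. Fibroblast genes, several of which make the same collagens, had a median of 0.68 at 3 days and 0.60 at 28 days, and their summed level was 14770 and 17069 CPM at 3 days and 12231 and 6434 CPM at 28 days. Phagocyte genes summed to 1366 and 823 CPM at 3 days and 1386 and 791 CPM at 28 days, and neuronal genes to 1709 and 3071 CPM and to 1933 and 3550 CPM. Every gene of these lists had at least 1 UMI on both sides. Choroid plexus and ependymal genes summed to 10150 CPM at 3 days on the injured side, against 478 CPM opposite, but to 7018 and 7161 CPM at 28 days. The part of these cells in the results was not tested beyond the left-out bins. Without the bins that held a fibroblast UMI, Col3a1 at 3 days was at 0.49 in place of 2.10 and Tnc at 0.97 in place of 2.38, and Vim at 1.34. That choice takes bins out by Dcn, Lum, Col1a1 and Col1a2, which make or bind the same matrix, so it lowers collagen values in part by construction.

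Of the immediate early genes, several of them direct targets of serum response factor, 4 of 14 were at least 2-fold higher on the injured side at 3 days, where 4.64% of all genes were. Fos was at 197 and 45.9 CPM (2.09, 1.55 to 2.69), Egr1 at 321 and 186 CPM (0.78, 0.47 to 1.11) and Ier2 at 136 and 47.3 CPM (1.51, 0.95 to 2.14). The matricellular genes Ccn1 and Ccn2, targets of stretch and YAP, were at 260 and 103 CPM (1.34) and 598 and 343 CPM (0.80). The list had a median of 0.71, while Srf itself was at 141 and 130 CPM (0.12, -0.31 to 0.55). At 28 days the median was 0.07 and 0 of 13 genes passed 2-fold, with Fos at -0.38 and Egr1 at -0.27. Neighbouring bins at 3 days held 252 and 245 CPM of Egr1 and 96.2 and 39.6 CPM of Fos on the injured and opposite side. Beyond neighbours the list had a median of 0.16 at 3 days, with 0 of 14 genes higher and 2 lower by 2-fold, beside 1.99% and 3.91% of all genes.

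The inflammatory list of the vessel wall had a median of 1.34 over 9 genes at 3 days, 5 of them at least 2-fold higher, and 0.57 over 6 genes at 28 days, none past 2-fold, where 4.64% and 2.95% of all genes were higher. Beyond neighbours its median at 3 days was -0.79, with 0 genes higher and 3 lower by 2-fold, beside 1.99% and 3.91% of all genes. The chemokine Ccl2 rested on 22 and 7 UMIs at 3 days (1.80, 0.59 to 3.34). Il1r1, the interleukin 1 receptor, was at 86.1 and 33.8 CPM (1.34, 0.64 to 2.09) and Cxcl12, a chemokine of vessel walls, at 241 and 131 CPM (0.88, 0.50 to 1.26), the latter at -0.04 without bins with a fibroblast UMI. Growth factor genes were nearer level, with medians of 0.25 and 0.36 over 16 genes. Tgfbr2, a TGF-β receptor, had ratios of 0.77 and 0.89. Angpt1, which mural cells make to steady endothelium, was at 17.2 and 40.5 CPM at 3 days (-1.19, -2.38 to -0.20), on 11 and 30 UMIs. Complement gene C3 at 28 days had 41 UMIs on the injured side, 38 of them in the lesion zone, and 0 on the opposite side, at least 11-fold higher, while zone neighbours held 1086 CPM of it.

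To separate what was particular to the chosen bins from the tissue around them, the side ratio of the neighbours was subtracted on the log2 scale. By this measure 0.486% of genes were at least 2-fold higher and 1.98% lower at 3 days, and 0.684% and 1.74% at 28 days, around medians of -0.09 and -0.06. At the minimum used for lists the shares were 1.99% and 3.91%, and 2.09% and 3.8%. The contractile median was 0.03 at 3 days over 21 genes, 3 of them higher and 1 lower by 2-fold, and 0.10 at 28 days over 20 genes, 3 of them higher and none lower. The synthetic median was -0.41 at 3 days, with 0 of 15 genes higher and 3 lower by 2-fold. At 28 days it was 0.06, with 2 of 12 genes higher and 2 lower. Tagln had a difference of -1.56 (-1.81 to -1.31) at 3 days, since neighbours held 134 CPM on the injured and 34.2 CPM on the opposite side. Vim had differences of -1.48 at 3 days and -2.24 at 28 days, with 1234 and 188 CPM in the neighbours at 3 days. The level around the chosen bins of the injured side was uneven at 3 days. In bins 48 µm away Tagln was at 690 CPM in the lesion zone, 39.1 CPM outside it and 23.7 CPM opposite. Vim there was at 5422, 597 and 174 CPM. The differences were not recomputed without the zone, so its part in them was not tested. Mirrored columns brought the contractile difference at 3 days to -0.40.

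Synpo2, an actin-bundling protein of the smooth muscle Z-body, had a higher side ratio than the neighbours in both sections, with a difference of 1.42 (0.94 to 1.89) in the first and 1.14 (0.62 to 1.66) in the second. Chosen bins held 196 and 128 CPM of it at 3 days and 221 and 249 CPM at 28 days, and with mirrored columns the side ratio at 3 days was -0.25 while the difference stayed at 1.37. Over all columns the neighbours held 36.1 and 63.5 CPM and then 27.5 and 68.6 CPM. The sides at 28 days thus differed in the neighbours and less in the chosen bins. Smtn had a difference of 1.32 (0.61 to 2.04) at 28 days, with 10.7 and 14.4 CPM in the neighbours. Outside the contractile list, Rbp4, a retinol carrier, had differences of 2.22 and 2.49, and Cyp26b1, which breaks down retinoic acid, of 2.70 at 3 days. Among the lowest were Hmox1, the haem-degrading oxygenase, at -2.03, Tuba1c, a tubulin, at -2.15 and Ace, the angiotensin-converting enzyme, at -1.64 at 3 days. Hmox1 was nevertheless higher in the chosen bins of the injured side, at 144 and 58.1 CPM. Without bins with a fibroblast UMI the side ratio at 3 days was -0.32 for Cyp26b1 and -0.076 for Hmox1, in place of 2.00 and 1.30.

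Beside Timp1 and Tnc, several of the widest side ratios belonged to genes that were concentrated in 1 patch or that mark other cells. At 3 days Ttr, the transthyretin of the choroid plexus, had 6089 and 253 UMIs, of which 37.1% lay in 1 patch. The immunoglobulin genes Igkc and Ighm had 0 and 293 UMIs, at least 84.2-fold lower on the injured side, and 32 and 248 UMIs, with 44.0% and 40.4% in 1 patch. In bins deeper than 80 µm the ratio of Ighm was 0.20 in place of -2.72. Others that were high were S100a4 (373 and 31.1 CPM), Serpina3n (309 and 35.1 CPM) and Cd24a (323 and 48.6 CPM), and the lowest after the immunoglobulins were neuronal, such as Camk2a at 164 and 888 CPM and Ddn at 51.7 and 313 CPM. At 28 days Pmch, a hypothalamic neuropeptide, had 191 and 1 UMIs, 91.1% of them in 1 patch, and Avp, vasopressin, 12 and 148 UMIs, 62.5% in 1 patch. Gfap, the astrocyte filament, was at 1434 and 385 CPM (1.89), Ctsd, a lysosomal protease, at 244 and 85.5 CPM, and Thbs1, a matrix protein, at 212 and 85.5 CPM (1.30), 34.4% of it in 1 patch.

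Inside the lesion zone at 3 days the chosen bins went against their name. Of the 73 bins, 69.9% held no Myh11, against 27.4% on the opposite side and 27.0% on the injured side outside the zone, and 71 of them held Acta2, which activated fibroblasts and pericytes are known to make as well. The zone at 28 days had the lowest share without Myh11, 17.5% of 114 bins, against 26.9% and 24.5%. The bins of the zone at 3 days formed 23 patches, the largest with 31.5% of them. The zone bins at 3 days are therefore named by the rule that chose them and not as arteries.

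Contractile genes split in the zone at 3 days. The chosen zone bins were deeper than those opposite, with a median of 1146 against 753 UMIs. Of them 50.7% held exactly 2 UMIs of the defining genes, against 40.9% opposite. A fixed cut asks for a lower level in deeper bins. Scaling per defining UMI put the median of all genes in this zone at 0.53 in place of -0.06, so the ratios depend on the scaling. Defining UMIs chose the bins, so this shift is in part fixed by the rule and is a description only. Tagln was at 2407 CPM against 2292 CPM on the opposite side (0.07, -0.15 to 0.28), and Cald1 at 1753 against 1052 CPM (0.74, 0.47 to 0.99). Myl9 was at 491 against 1132 CPM (-1.19, -1.69 to -0.76), Tpm2 at 701 against 1277 CPM (-0.85, -1.27 to -0.49), Mylk at 362 against 588 CPM (-0.68, -1.27 to -0.17) and Lmod1 at 58.4 against 186 CPM on 5 UMIs (-1.54, -3.32 to -0.42). The list median was -0.01, with 1 gene higher and 3 lower by 2-fold of 23. Of all genes at the minimum for lists 12.8% were higher and 18.5% lower (8.61% and 18.9% at 50 UMIs). No zone ratio was recomputed with mirrored columns, which changed the sign of the contractile side median at 3 days. Several of these genes were lower in the zone bins without Myh11 than in those with it. Myl9 was at 1126 CPM in the 22 zone bins with a Myh11 UMI and at 204 CPM in the 51 without, and on the opposite side at 1254 and 822 CPM. Lmod1 had 188 CPM with Myh11 and 0 UMIs without it, and Pln 300 CPM and 0 UMIs. Other areas split in the same order. Opposite, Lmod1 was at 209 and 129 CPM and Pln at 288 and 143 CPM. On the injured side outside the zone Lmod1 was at 268 and 53.2 CPM and Pln at 289 and 130 CPM. With Myh11 bins alone in the zone and on the opposite side, Myl9 was at -0.13, Lmod1 at -0.02 and Tpm2 at -0.55. Myh11 is a contractile gene that chose the bins, so this split favours contractile genes by construction and is a description only. A wider zone, set at the 95th percentile and holding 387 chosen bins, turned Myl9 to 0.33, Lmod1 to 0.32, Tpm2 to 0.43 and Mylk to 0.15.

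**Figure D4:**
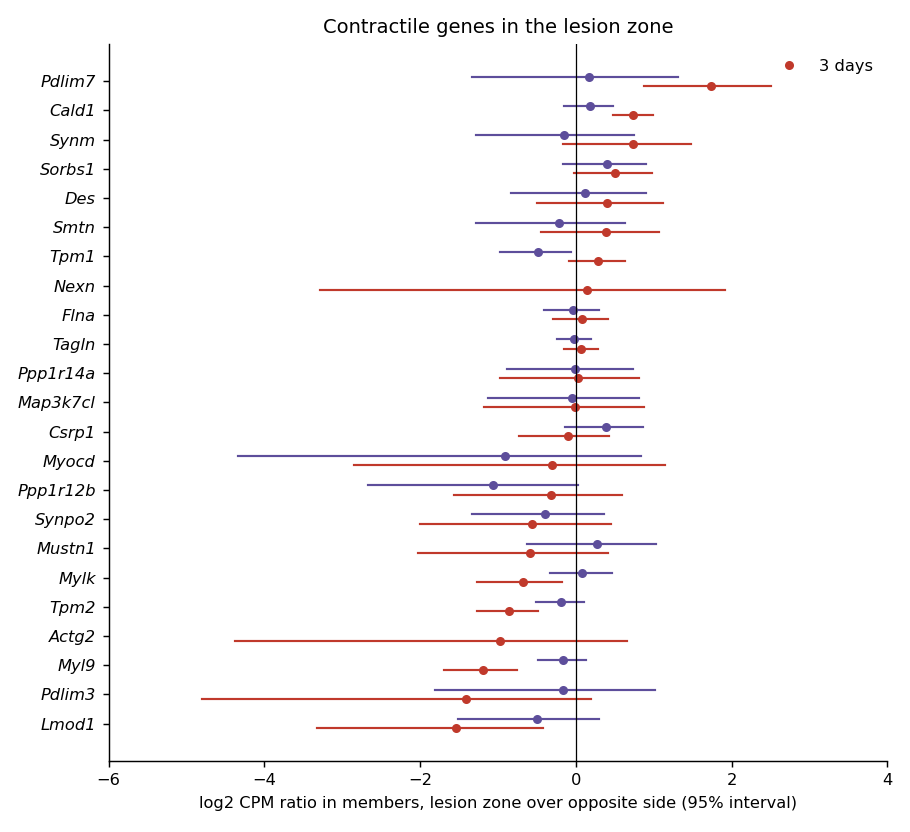
Log2 CPM ratio of lesion zone over opposite side in chosen bins for the contractile genes with at least 20 UMIs and a UMI in both areas, with 95% intervals, at 3 days (red) and 28 days (purple). At 3 days Cald1 lies at 0.74 and Tagln at 0.07 while Tpm2, Myl9 and Lmod1 lie at -0.85, -1.19 and -1.54, and at 28 days Tagln, Myl9 and Tpm2 lie at -0.02, -0.16 and -0.19.

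The zone at 28 days gave small ratios for Tagln, Myl9, Mylk and Pln, the last of which is outside the contractile list. Tagln was at 2600 against 2636 CPM (-0.02, -0.24 to 0.20), Myl9 at 1288 against 1446 CPM (-0.16, -0.48 to 0.14), Mylk at 834 against 791 CPM (0.08, -0.33 to 0.46) and Pln at 368 against 353 CPM (0.08, -0.56 to 0.64). The list median was -0.10, with 0 genes higher and 2 lower by 2-fold of 22. Of all genes at the minimum for lists 7.31% were higher and 15% lower (4.74% and 14.4% at 50 UMIs). Only 22 of the 23 genes of the list had any UMI in the zone. Tpm1, a tropomyosin of many cells, was at 589 against 831 CPM (-0.49, -0.97 to -0.06). In the wider zone, with 280 chosen bins, Tagln was at 0.67, Myl9 at 0.41, Tpm2 at 0.56 and Tpm1 at 0.39.

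Matrix genes in the zone were far above the opposite side at 3 days. The synthetic median was 2.28, with 11 of 15 genes at least 2-fold higher and 1 lower, beside 12.8% and 18.5% of all genes. Col3a1 was at 2478 against 178 CPM (3.79, 3.48 to 4.12), Col1a1 at 1870 against 385 CPM (2.28, 1.99 to 2.56), Tnc at 1321 against 36.5 CPM (5.16, 4.56 to 5.84) and Timp1 at 830 against 23.0 CPM (5.14, 4.40 to 6.03). Zone bins with and without Myh11 shared this, with Tnc at 1164 and 1392 CPM, Timp1 at 713 and 882 CPM and Col3a1 at 4542 and 1544 CPM. Neighbours in the zone held 277 CPM of Col3a1, 394 CPM of Tnc and 275 CPM of Timp1, so the chosen bins held more than their surroundings, and Vim was at 6813 and 5540 CPM. Col4a1 was at 2524 CPM in the zone bins against 335 CPM in zone neighbours and 530 CPM in chosen bins of the opposite side (2.25, 2.01 to 2.50). Loxl2, a collagen cross-linking enzyme, was at 269 against 13.5 CPM (4.28), while elastin was at 164 against 161 CPM (0.07, -0.89 to 0.83).

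Of the growth factor list 8 of 16 genes were at least 2-fold higher and 2 lower in the zone at 3 days, and of the inflammatory list 3 of 6 were higher and 0 lower, beside 12.8% and 18.5% of all genes. Il1r1 was at 222 against 33.8 CPM (2.73), Vegfa, the endothelial growth factor, at 222 against 56.7 CPM (1.99) and the immediate early gene Ccn1 at 608 against 103 CPM (2.57). Fibroblast genes went both ways, with a list median of -0.27 and a sum of 6311 CPM in the zone against 17069 CPM opposite, since Ptgds was at 748 against 13868 CPM (-4.20). Choroid plexus and ependymal genes summed to 5201 CPM in the zone bins, against 478 CPM opposite and 462 CPM in the zone neighbours, with 4 of 5 measured genes at least 2-fold higher than opposite, and their part in the zone ratios was not tested beyond the left-out bins. Without bins with a choroid plexus UMI the synthetic median in the zone was 2.62. In the 16 zone bins that held no UMI of Dcn, Lum, Col1a1 or Col1a2, Col3a1 was at -2.36, the synthetic median at -0.94 and the contractile median at -1.31, but Col1a1 and Lum belong to the synthetic list, so that choice itself lowers the list. Phagocyte genes summed to 2092 CPM in the zone bins and 2493 CPM in the zone neighbours, and neuronal genes to 1028 and 2653 CPM.

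**Figure D5:**
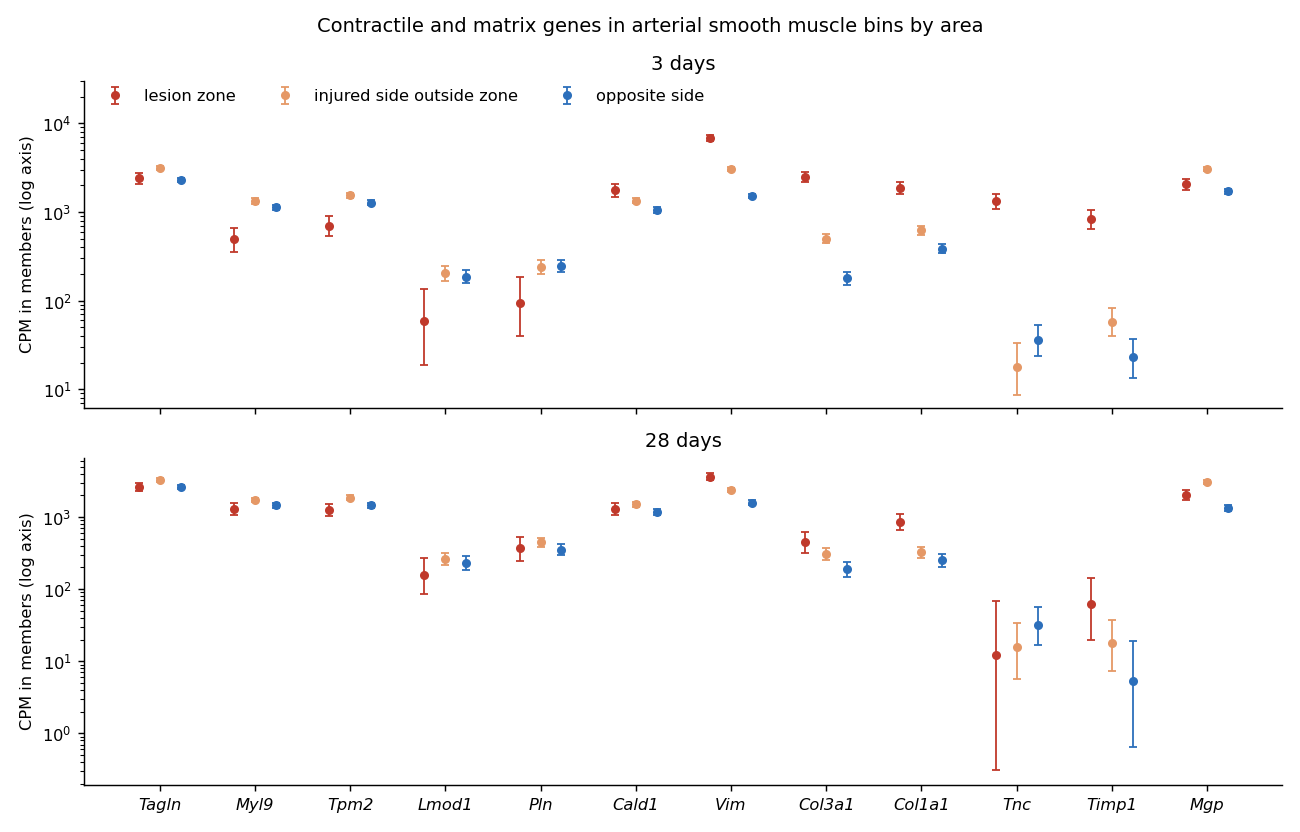
Level (CPM, log axis) of contractile and matrix genes in the chosen bins of the lesion zone (red), of the injured side outside it (orange) and of the opposite side (blue), with 95% Poisson intervals. At 3 days Tnc and Timp1 are at 1321 and 830 CPM in the zone and below 100 CPM elsewhere, while Myl9 is at 491 CPM in the zone and above 1000 CPM elsewhere.

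Matrix genes in the zone were above the opposite side at 28 days too. The synthetic median was 1.21, with 7 of 10 genes at least 2-fold higher and none lower, beside 7.31% and 15% of all genes. Col1a1 was at 858 against 251 CPM (1.77, 1.30 to 2.23), Spp1 at 552 against 120 CPM (2.20, 1.57 to 2.83), Vim at 3642 against 1577 CPM (1.21, 1.0 to 1.41) and Col3a1 at 454 against 190 CPM (1.27, 0.64 to 1.85). Spp1 and Vim were also high around the vessels, at 1666 and 2916 CPM in zone neighbours, while Col1a1 and Col3a1 were at 151 and 114 CPM there. Phagocyte genes placed the zone, and the study reports Spp1 in monocytes and disease-associated microglia. The level of Spp1 and of other phagocyte genes in the zone is thus in part fixed by construction. Fibroblast genes summed to 14739 CPM in the zone bins and 6434 CPM opposite, phagocyte genes to 3409 and 791 CPM, with 7787 CPM in zone neighbours, and neuronal genes to 699 and 3550 CPM. The part of these cells in the zone ratios was not tested. Leaving out bins with a fibroblast UMI kept 53 zone and 274 opposite bins, and leaving out those with a choroid plexus UMI kept 104 and 435. The matrix ratios in these subsets are not given here, so nothing is drawn from them.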

How the data were processed

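Each section was 1 Visium HD capture of formalin-fixed mouse brain, read out with probes and binned to 16 µm. The deposited counts are whole-number UMI counts per gene and bin, made by the authors with Space Ranger 4.0.1 on genome build mm10 per the submitters' processing notes, with no normalization. The count of a gene depends on its probes, so levels are compared between areas for 1 gene and not between genes. The probe set held 19070 genes, of which the 3 defining genes and the 6 genes that placed the lesion zone were left out of the results, and 5 symbols held by 2 identifiers each were kept apart. Bins under 100 UMIs were left out, which was 1.93% of bins at 3 days and 2.15% at 28 days.

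Counts were summed over the bins of an area and divided by the summed UMIs to give CPM. Ratios used a pseudocount of 0.5 UMIs, needed at least 50 UMIs per gene for calls and 20 for lists, and carry intervals of counting error at 95%, with a floor of 3 UMIs where an area held none. Neighbours lay 2 or 3 bins from a chosen bin. The lesion zone was made of tiles of 64 µm, smoothed over 5 by 5 tiles, with levels over the 99th percentile found opposite, and in patches of at least 25 tiles. Genes were named where they were among the 10 highest or lowest side ratios of a section, the 10 highest or 5 lowest beyond neighbours or the 15 highest over neighbours, with at least 100 UMIs and an interval that left out 0, or where they belonged to a gene list, and not all such genes are printed. The members and lists were chosen with earlier results of these data known. Python 3.11.15, numpy 2.4.6, pandas 2.3.3 and scipy 1.17.1 were used, and edgeR 4.0.16 in R 4.3.3 for TMM scaling only. The ratio of summed counts and its interval were tested on simulated independent counts with known folds. The choice of bins, neighbours and zone, the thinning and the difference beyond neighbours were not tested in this way. Alternatives covered thresholds, scaling, the opposite columns used, the distance of neighbours, the percentile of the zone and subsets of the chosen bins.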

Additional observations from a re-analysis of the deposited data

Results flagged for a closer look

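Of 73 genes that the text reports, 6 had intervals on opposite sides of 0 on the side ratio at 3 days and 28 days. Some of these genes were named for their wide side ratios, and the share over all genes was not counted. The 6 of 73 therefore give no rate for genes at large. With 1 section per time point the difference between the sections was not tested. Gucy1a1, a subunit of the nitric oxide receptor, had a log2 side ratio of -0.56 at 3 days and 0.44 at 28 days, and Rgs5, a mural cell gene, of 0.31 and -0.56. Ptgds was at -0.49 and 1.15, Myoc, myocilin, at -1.44 and 2.54, and Apoe, the lipid carrier that astrocytes and phagocytes make as well, at -0.51 and 0.85. The fibroblast list, which holds Ptgds, did not share this at 3 days. Its median was 0.68, with 6 of 12 intervals above 0 and 1 below. The share of chosen bins within 80 µm of the outline was 30.4% injured and 40.6% opposite at 3 days and 24.2% and 17.2% at 28 days, where 4.41% and 5.69% and then 8.73% and 2.70% of all bins lay there. In bins deeper than 80 µm the opposite signs were gone for these 3 genes, with Ptgds at 0.45 and 1.11, Myoc at 1.12 and 2.67 and Apoe at 0.03 and 0.73, and remained for Gucy1a1 (-0.69 and 0.53) and Rgs5 (0.41 and -0.59). Avp, the hypothalamic peptide vasopressin, was at 2.70 and -3.89, with 62.5% of its UMIs at 28 days in 1 patch.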

How the results depend on the processing

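No paired analysis was possible because each time point had 1 section. Of 1501 alternative values of single genes 285 moved beyond their counting interval, 72 had the other sign, and 9 of these were of genes past 2-fold, and of 204 alternative values of summaries 51 moved. Alternatives that left out the largest patch or bins near the outline, and those of the lesion zone other than its percentile, were chosen after seeing the data. The causes were not tested.

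Counts of genes past 2-fold followed the minimum per gene, which changes how many genes are counted. On the side ratio at 3 days 180 genes were higher and 253 lower, which became 492 and 477 at 20 UMIs per gene and 30 and 62 at 200 UMIs, and at 28 days 61 and 104 became 264 and 316, and 4 and 8. Beyond neighbours 35 and 143 at 3 days became 210 and 413, and 4 and 15, and 33 and 84 at 28 days became 186 and 338, and 1 and 5. With a threshold of 3 UMIs for chosen bins the side ratio gave 93 higher at 3 days and 33 higher and 66 lower at 28 days, and 16 were higher beyond neighbours at 3 days. Without bins with a fibroblast UMI the side ratio gave 74 and 103 at 3 days and 26 and 32 at 28 days, and beyond neighbours 82 were lower at 3 days, and 15 were higher and 25 lower at 28 days. Mirrored columns gave 126 lower on the side ratio and 69 higher beyond neighbours at 3 days, and bins deeper than 80 µm gave 40 and 57 on the side ratio at 28 days.

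The contractile median at 3 days was -0.17 on the side ratio and -0.40 beyond neighbours with mirrored columns, and on the side ratio at 28 days 0.58 without bins with a fibroblast UMI and 0.38 in deeper bins. The share of chosen bins at 3 days was 0.813% injured and 0.514% opposite after thinning, 1.15% and 0.640% at 3 UMIs, and 0.933% on the mirrored opposite side. At 28 days it was 0.919% and 0.506% after thinning, 0.984% and 0.541% at 3 UMIs, and 1.74% on the mirrored injured side. The synthetic median in the zone at 3 days, 2.28, was 1.66 in the zone at the 95th percentile, 2.62 without bins with a choroid plexus UMI, 3.23 in deeper bins, 2.87 per defining UMI and -0.94 in the 16 bins without a fibroblast UMI, where the contractile median was -1.31. The last choice removes bins by Col1a1 and Lum, members of the synthetic list, so the fall of that list there is partly fixed by it. TMM scaling put the median of all genes in the zone at 3 days at -0.23 in place of -0.06, and scaling per defining UMI put it at 0.53. Values per defining UMI are in part fixed by the rule, since these UMIs chose the bins.

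The genes past 2-fold that took the other sign were all at 3 days. Without bins with a fibroblast UMI the side ratio was -0.32 for Cyp26b1 and -0.076 for Hmox1, and Col3a1 in the zone was at -2.36. In deeper bins the side ratio was 0.20 for Ighm and 1.12 for Myoc. In the zone at the 95th percentile Lmod1 was at 0.32, Myl9 at 0.33 and Ptgds at 0.20, and with Myh11 bins alone Pln was at 0.14. Among genes under 2-fold, mirrored columns at 3 days gave side ratios of -0.05 for Tagln, -0.30 for Myl9, -0.23 for Tpm2, -0.17 for Smtn, -0.10 for Flna, -0.11 for Kcnmb1 and -0.25 for Synpo2. In the zone at the 95th percentile Tpm2 was at 0.43 and Mylk at 0.15 at 3 days, and Tagln was at 0.67, Myl9 at 0.41, Tpm2 at 0.56 and Tpm1 at 0.39 at 28 days. The zone held 73 and 114 chosen bins, and genes of few UMIs there have wide intervals.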
